A study of Mus musculus with 10 samples.

Results

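The genes described here are 35 that are known for their roles in macrophages and other phagocytes, chosen by name and read in the skin of a mouse model of alopecia areata (AA). All 35 were measured, among 18193 genes that had a probe set assigned to exactly 1 gene symbol, and a gene with several such probe sets was read from the brightest. Expression was measured on Affymetrix mouse genome arrays at week 12, with 1 array per mouse and 10 arrays in all, from 5 baricitinib treated mice and 5 vehicle controls. Every mouse was a C3H/HeJ mouse that carried a graft of alopecic skin from an affected donor of the same strain. Baricitinib, which blocks JAK1 and JAK2, or vehicle was delivered by an osmotic pump implanted at grafting, so the comparison asked whether systemic JAK inhibition begun then altered the phagocyte genes of the skin. C3H/HeJ mice carry a loss-of-function allele of Tlr4, the receptor for bacterial lipopolysaccharide, in both groups. The graft model carries established disease into recipients that were free of it. The titles number the mice within each group but do not state litters or cages.

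Macrophages in skin come from cells seeded before birth and from blood monocytes that enter the tissue, with more of them arriving during inflammation. They take up particles through Fc, lectin and scavenger receptors, kill with reactive oxygen made by NADPH oxidase and with lysozyme, and clear dying cells without inflammation through receptors such as Mertk. Interferon gamma (IFN-gamma), which signals through JAK1 and JAK2, raises Fcgr1 and other macrophage genes, and colony-stimulating factors, of which GM-CSF also signals through JAK2, govern macrophage survival and number.

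The promoters of 26 members were found in the RefSeq table of build GRCm38.p6, in 30 windows that each ran over 300 bases around a transcription start, and were searched on both strands for 3 short motifs, whose matches could overlap each other. GAGGAA, the core bound by PU.1, the lineage factor of myeloid cells encoded by Spi1, was in 18 of the 30 windows (60.0%) and in 28.3% of all 32851 windows in the table. GAAA followed by any 2 bases and a further GAAA, the core of the interferon-stimulated response element, was in 4 of the member windows (13.3%, those of Aif1, Cybb, Ncf1 and Pilra), against 3.44% of all windows. TTCNNNGAA, the interferon gamma activation site, was in 2 member windows (6.67%, Fcgr1 and Ncf1), against 8.3% of all windows. A match is a string of letters and not a measured binding site. The 5 promoters below are shown because Clec7a, Cd163 and Folr2 had 3 of the widest differences between groups, and Fcgr1 and Cybb carried interferon motifs. Capitals mark the matches. Clec7a has 1 GAGGAA match at chr6:129472730-129473029 (minus strand). Cd163 at chr6:124304401-124304700 (plus strand) and Folr2 at chr7:101845282-101845581 (minus strand) have no match to any of the 3 motifs. Fcgr1 at chr3:96293920-96294219 (minus strand) has a TTCNNNGAA match and a GAGGAA match on the opposite strand, and Cybb at chrX:9469275-9469574 (minus strand) has 3 matches to the response element core and 1 GAGGAA match on the opposite strand.
Clec7a: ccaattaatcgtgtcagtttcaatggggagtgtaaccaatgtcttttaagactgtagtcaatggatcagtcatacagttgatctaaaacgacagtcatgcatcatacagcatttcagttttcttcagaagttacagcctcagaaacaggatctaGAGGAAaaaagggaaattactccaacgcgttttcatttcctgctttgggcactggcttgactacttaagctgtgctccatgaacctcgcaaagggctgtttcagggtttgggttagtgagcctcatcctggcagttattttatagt
Cd163: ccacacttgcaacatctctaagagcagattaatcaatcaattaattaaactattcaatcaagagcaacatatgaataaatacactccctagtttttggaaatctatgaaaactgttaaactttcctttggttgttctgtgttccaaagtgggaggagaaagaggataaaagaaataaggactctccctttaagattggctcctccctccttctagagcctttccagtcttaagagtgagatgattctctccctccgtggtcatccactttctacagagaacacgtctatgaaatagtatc
Folr2: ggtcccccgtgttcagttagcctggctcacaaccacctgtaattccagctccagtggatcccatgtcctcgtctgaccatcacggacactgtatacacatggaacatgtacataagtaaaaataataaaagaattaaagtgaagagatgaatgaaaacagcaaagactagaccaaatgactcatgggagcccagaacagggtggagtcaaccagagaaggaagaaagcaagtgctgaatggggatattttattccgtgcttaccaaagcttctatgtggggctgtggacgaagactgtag
Fcgr1: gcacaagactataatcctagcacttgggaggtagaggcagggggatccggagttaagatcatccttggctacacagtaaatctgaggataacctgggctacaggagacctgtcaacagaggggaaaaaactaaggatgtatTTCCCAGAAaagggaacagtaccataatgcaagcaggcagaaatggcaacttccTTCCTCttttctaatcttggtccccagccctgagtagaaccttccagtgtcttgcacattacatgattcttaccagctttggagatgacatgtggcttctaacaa
Cybb: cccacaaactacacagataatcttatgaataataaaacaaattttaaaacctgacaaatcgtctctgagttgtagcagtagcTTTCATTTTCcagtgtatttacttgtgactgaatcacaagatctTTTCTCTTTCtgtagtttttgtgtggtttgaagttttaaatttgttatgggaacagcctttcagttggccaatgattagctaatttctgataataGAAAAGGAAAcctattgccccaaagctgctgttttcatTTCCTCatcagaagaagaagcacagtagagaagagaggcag

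The widest negative differences were those of Clec7a (-2.46 log2), Msr1 (-1.42) and Mpeg1 (-1.17), and the widest positive ones those of Folr2 (1.56) and Cd163 (1.02). Next among the positive ones were the lysozyme Lyz2 (0.93) and Cd68 (0.85). Genes of like role did not all share a direction. Folr2 and Cd163 are receptors of resident macrophages, as are Siglec1, with a difference of -0.41, and Timd4, with 0.00. No member passed the test. With all 10 arrays, 22 of the 35 members had a lower mean in baricitinib treated skin and 13 a higher one, and the median difference was -0.17, against a median of 0.01 over all 18193 genes. Differences are baricitinib minus vehicle, and the test was limma with Benjamini-Hochberg adjustment over all 45037 probe sets and a threshold of 0.05. In that test 0 members and 0% of all genes passed, and the smallest adjusted p of a member was 0.227 (Csf1r). At an unadjusted p under 0.05 there were 3 members with a lower mean, Mpeg1, Csf1r and Trem2, against 6.22% of all genes lower at that level. There were 2 members with a higher mean, Cd163 and Folr2, against 9.81% of all genes higher. The groups did not overlap for 1 member, Folr2, which was higher on every baricitinib array than on every vehicle array, as were 3.8% of all genes. No member was lower without overlap, against 1.82% of all genes.

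Vehicle replicate 5 stood apart from the other 9 arrays. Its median correlation with the other arrays was 0.705, whereas that of the others was 0.959 to 0.981, and it was the lowest of the vehicle arrays for 24 of the 35 members (68.6%, against 54.2% of all genes). The study's methods removed 1 vehicle array after quality control without naming it in the labels. The members were therefore also read without vehicle replicate 5. Without it 27 members had a lower mean in baricitinib treated skin and 8 a higher one, with a median difference of -0.45, against -0.06 over all genes. The share of all genes with a lower mean also rose, from 49.7% with all arrays to 57.2% without vehicle replicate 5. Again 0 members and 0% of all genes passed the adjusted threshold. At an unadjusted p under 0.05 there were 11 members with a lower mean, Clec7a, Msr1, Mpeg1, Ms4a7, Aif1, Ncf4, Csf2ra, Csf1r, Laptm5, Trem2 and Cd53, while 16.1% of all genes were lower at that level. The 2 with a higher mean were again Cd163 and Folr2, with 13.3% of all genes higher. Cd163 and Folr2 were higher without overlap, as were 4.53% of all genes, and no member was lower without overlap, against 4.73% of all genes.

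RNA quality moved with the groups. The gap between the control probe sets at the 3' end and those at the 5' end of Gapdh and actin transcripts, wider where RNA is shorter, was 0.99 to 1.18 log2 on the baricitinib arrays, 1.01 on vehicle replicate 4 and 2.0 to 4.35 on the other vehicle arrays. With the gap as a covariate in the fit no member passed the threshold, the median difference of the members was -0.44 and 9 members had the other sign. In that fit the gap term rested on the vehicle arrays, since the gap hardly varied among baricitinib arrays, and its part in the differences was not tested beyond that fit. The value of each array relative to the gene mean shows the members' pattern. Baricitinib replicate 5 was the highest of the baricitinib arrays for 29 of 35 members (82.9%), against 19.3% of all genes, the exceptions being Csf1r, Csf2ra, Pilra, Cd14, Ptafr and Cd163. For 25 members (71.4%) it lay inside the range of vehicle replicates 1 to 4, against 58.3% of all genes. Its high values were not particular to phagocyte genes. The median over T cell markers was 9.33 log2 on baricitinib replicate 5, against 5.90 to 7.87 on baricitinib replicates 1 to 4. For mast cell markers it was 8.17, against 8.45 to 10.35, the other direction. Across all tested probe sets baricitinib replicate 5 and vehicle replicate 4, of opposite groups, were each other's closest array, at a correlation of 0.994. That was the highest between any pair of arrays, and its cause was not tested. The median over the members was 7.29 to 8.12 log2 on baricitinib replicates 1 to 4 and 8.99 on baricitinib replicate 5, against 8.45 to 9.24 on vehicle replicates 1 to 4 and 6.24 on vehicle replicate 5.

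**Figure D1:**
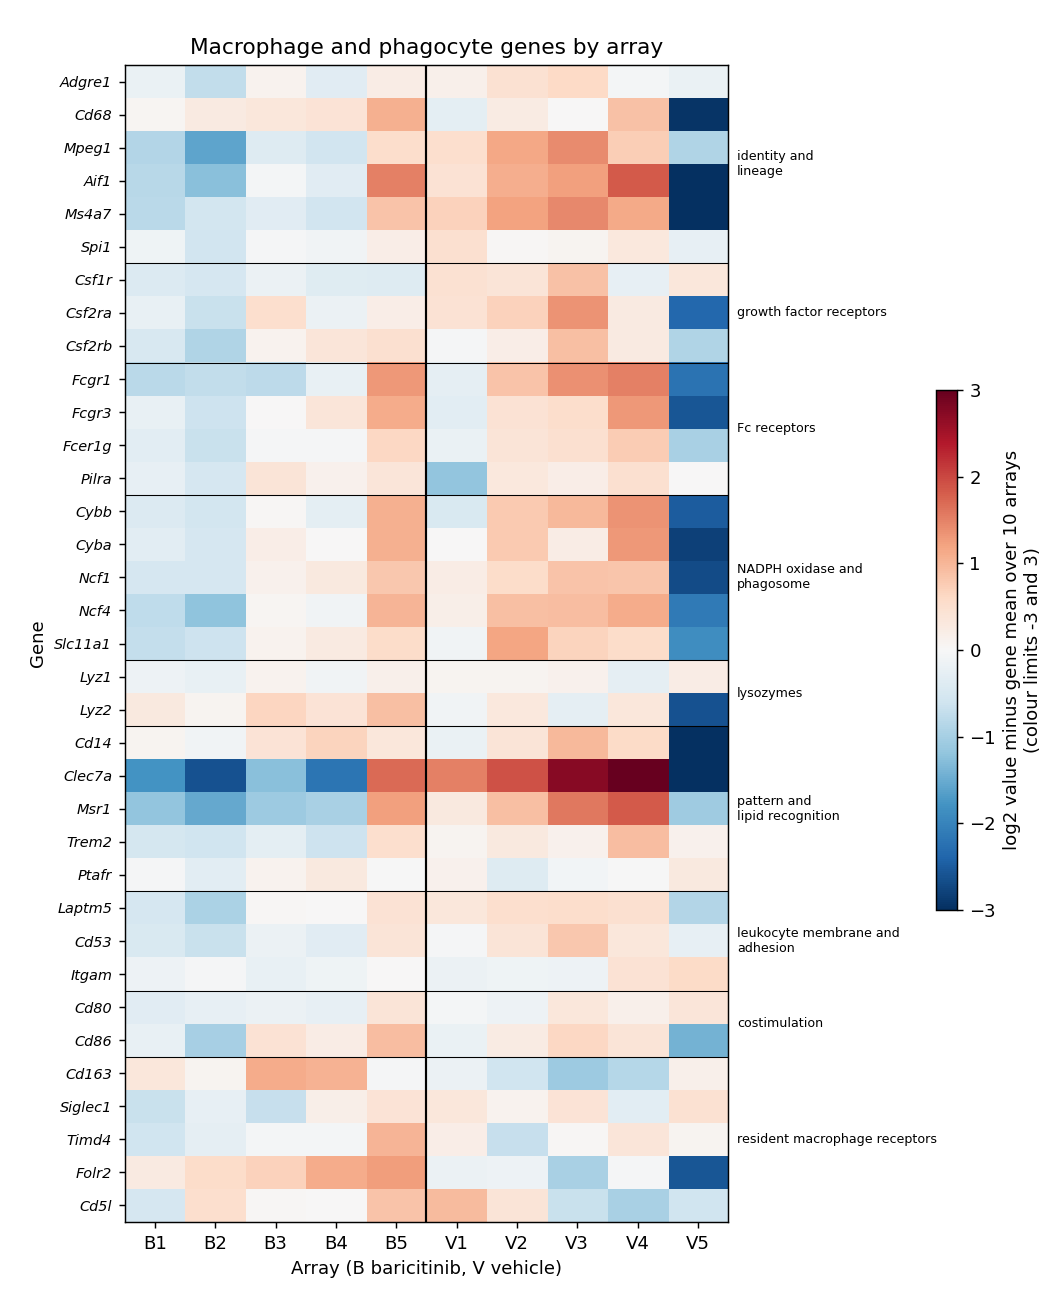
Log2 value of each of the 35 members (rows, grouped by role) on each of the 10 arrays (columns, B1 to B5 baricitinib, V1 to V5 vehicle), minus the gene's mean over all arrays, with red above the mean and blue below it. Baricitinib replicate 5 is the reddest baricitinib column, being the highest of its group for 29 members, and vehicle replicate 5 is the bluest vehicle column, being the lowest of its group for 24.

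Of the receptors that recognise microbes and modified lipids, Clec7a, Msr1 and Trem2 had a lower mean in baricitinib treated skin, and Clec7a had the widest difference of the 35 members. Clec7a encodes dectin-1, the lectin receptor for fungal beta-glucans. It was at 6.43, 5.62, 6.95, 6.03 and 9.92 log2 on baricitinib replicates 1 to 5, against 9.74, 10.12, 10.95, 11.22 and 5.21 on vehicle replicates 1 to 5. Baricitinib replicates 1 to 4 were below vehicle replicates 1 to 4, but baricitinib replicate 5 lay among those vehicle arrays and vehicle replicate 5 lay below every baricitinib array. Clec7a averaged 6.99 ± 1.71 log2 in baricitinib treated mice and 9.45 ± 2.45 in vehicle controls (SD, n = 5 each), a difference of -2.46 ± 1.19 (SE, limma adjusted p = 0.358). Without vehicle replicate 5 the difference was -3.52 ± 0.79 (adjusted p = 0.0737).

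Msr1, the class A scavenger receptor for modified lipoproteins, had a like spread of arrays. Its values were 6.59, 6.22, 6.68, 6.80 and 8.99 log2 on baricitinib replicates 1 to 5, against 8.06, 8.66, 9.34, 9.61 and 6.69 on vehicle replicates 1 to 5. The difference was -1.42 ± 0.65 (SE, limma adjusted p = 0.342), and -1.86 ± 0.55 without vehicle replicate 5 (adjusted p = 0.0911). All 4 probe sets of Msr1 had a negative difference, between -1.82 and -0.22. Vehicle replicate 5 was the lowest vehicle array on the brightest and the dimmest of them. On the next brightest it was within the range of the other vehicle arrays, at 7.08 log2. On the remaining probe set it was the highest of all arrays, at 7.55. Trem2, a lipid-sensing receptor of macrophages and microglia, was at 5.63, 5.55, 5.87, 5.54 and 6.66 log2 on the baricitinib arrays, against 6.23, 6.44, 6.28, 7.09 and 6.29 on the vehicle arrays. Here vehicle replicate 5 was within the range of its group, and baricitinib replicate 5 was the only baricitinib array above any vehicle array. The difference was -0.62 ± 0.26 (SE, limma adjusted p = 0.321).

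Cd14, the co-receptor that hands lipopolysaccharide to Tlr4, was at 7.90, 7.72, 8.22, 8.48 and 8.15 log2 on the baricitinib arrays, against 7.61, 8.20, 8.80, 8.39 and 4.69 on the vehicle arrays. The groups overlapped throughout apart from vehicle replicate 5, and the sign of the difference rested on that array, at 0.56 with it and -0.15 without it. Ptafr, the receptor for platelet-activating factor, was at 4.91 to 5.52 log2 in baricitinib treated mice and 4.83 to 5.51 in vehicle controls, with a difference of 0.02 and a 95% interval of -0.37 to 0.41.

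**Figure D2:**
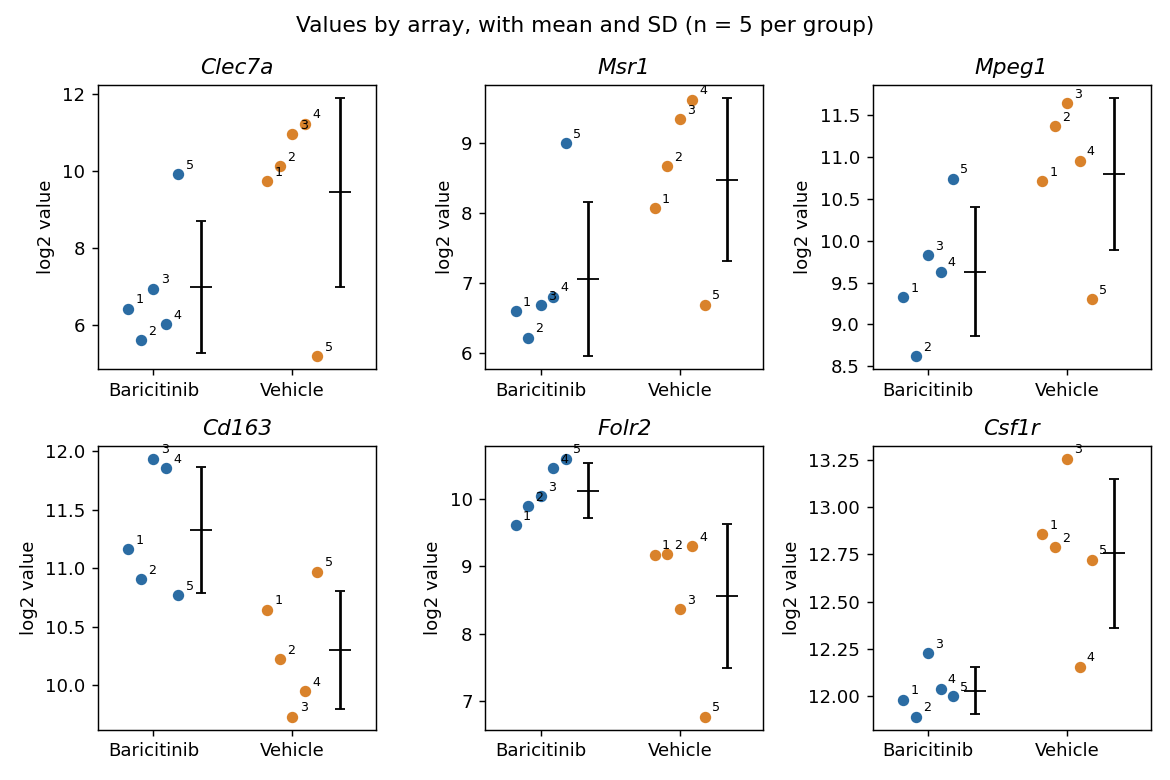
Log2 values of 6 members on each array, with numbered points for the replicates (baricitinib blue, on the left; vehicle orange, on the right) and a bar for the group mean and SD (n = 5 each). For Clec7a, Msr1 and Mpeg1 baricitinib replicate 5 lies with vehicle replicates 1 to 4 and vehicle replicate 5 lies at or below the level of baricitinib replicates 1 to 4, whereas for Folr2 every baricitinib array is above every vehicle array.

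Of the 6 identity and lineage genes, 5 had a lower mean in baricitinib treated skin, with a median difference of -0.38 (-0.90 without vehicle replicate 5). Mpeg1 encodes perforin-2, a pore-forming protein of phagocytes. Its values were 9.33, 8.62, 9.82, 9.63 and 10.74 log2 on the baricitinib arrays, against 10.71, 11.37, 11.64, 10.95 and 9.30 on the vehicle arrays. Vehicle replicate 5 apart, the lowest vehicle array stood just below baricitinib replicate 5 and above the other 4 baricitinib arrays. The difference was -1.17 ± 0.49 (SE, limma adjusted p = 0.317), and -1.54 ± 0.38 without vehicle replicate 5 (adjusted p = 0.0763).

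Ms4a7, a membrane protein of macrophages, was at 7.95, 8.22, 8.42, 8.18 and 9.61 log2 on the baricitinib arrays, against 9.44, 9.97, 10.19, 9.90 and 5.70 on the vehicle arrays. Vehicle replicate 5 moved the difference, which was -0.57 ± 0.80 with it and -1.40 ± 0.32 without it (SE, limma adjusted p = 0.674 and 0.0738). Aif1, the calcium-binding protein Iba1, had a like spread, at 6.77 to 9.54 log2 in baricitinib treated mice and 4.42 to 9.86 in vehicle controls, with a difference of -0.39, and -1.34 without vehicle replicate 5.

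The general macrophage markers differed less. Adgre1 encodes F4/80, the standard surface marker of mouse macrophages. It was at 8.45, 7.91, 8.74, 8.31 and 8.88 log2 on the baricitinib arrays, against 8.80, 9.10, 9.24, 8.58 and 8.44 on the vehicle arrays, a difference of -0.37 with a 95% interval of -0.89 to 0.14. Cd68, a glycoprotein of the lysosome, was at 9.47, 9.69, 9.78, 9.83 and 10.49 log2 on the baricitinib arrays, against 9.13, 9.67, 9.43, 10.30 and 6.48 on the vehicle arrays. Its difference was 0.85 with all arrays and 0.22 without vehicle replicate 5, which had by far the lowest value. Spi1 was at 6.41, 5.98, 6.51, 6.44 and 6.74 log2 on the baricitinib arrays, against 7.04, 6.57, 6.62, 6.85 and 6.30 on the vehicle arrays, a difference of -0.26 with a 95% interval of -0.69 to 0.17. In whole skin fewer cells of a type and less RNA per cell cannot be told apart.

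The resident macrophage receptors held the members with the widest differences in the other direction. Folr2, a folate receptor of tissue-resident macrophages, was at 9.61, 9.90, 10.04, 10.46 and 10.60 log2 on the baricitinib arrays, against 9.17, 9.18, 8.36, 9.30 and 6.77 on the vehicle arrays. The lowest baricitinib array was above the highest vehicle array. Folr2 averaged 10.12 ± 0.41 log2 in baricitinib treated mice and 8.56 ± 1.07 in vehicle controls (SD, n = 5 each), a difference of 1.56 ± 0.47 (SE, limma adjusted p = 0.236), and 1.12 ± 0.25 without vehicle replicate 5 (adjusted p = 0.0737). With the 3'/5' gap as a covariate it was 0.56. Baricitinib replicate 5, which for Clec7a lay among the vehicle arrays, was for Folr2 the array farthest from them.

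Cd163, the scavenger receptor for haemoglobin bound to haptoglobin, was at 11.16, 10.91, 11.94, 11.85 and 10.77 log2 on the baricitinib arrays, against 10.65, 10.23, 9.73, 9.95 and 10.97 on the vehicle arrays. Only vehicle replicate 5 lay above any baricitinib array. Cd163 averaged 11.32 ± 0.54 log2 in baricitinib treated mice and 10.30 ± 0.50 in vehicle controls (SD, n = 5 each), a difference of 1.02 ± 0.31 (SE, limma adjusted p = 0.239), and 1.19 ± 0.29 without vehicle replicate 5 (adjusted p = 0.0761). The other 3 receptors of this group did not share that pattern. Siglec1, the sialic acid-binding receptor CD169, was at 4.90 to 6.02 log2 in baricitinib treated mice and 5.29 to 6.06 in vehicle controls, a difference of -0.41. Timd4, a receptor for phosphatidylserine on dying cells, had a difference of 0.00 with a 95% interval of -0.68 to 0.69. Cd5l, a secreted inhibitor of apoptosis made by macrophages, was dim, with a mean under 5 log2 and a difference of 0.36.

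**Figure D3:**
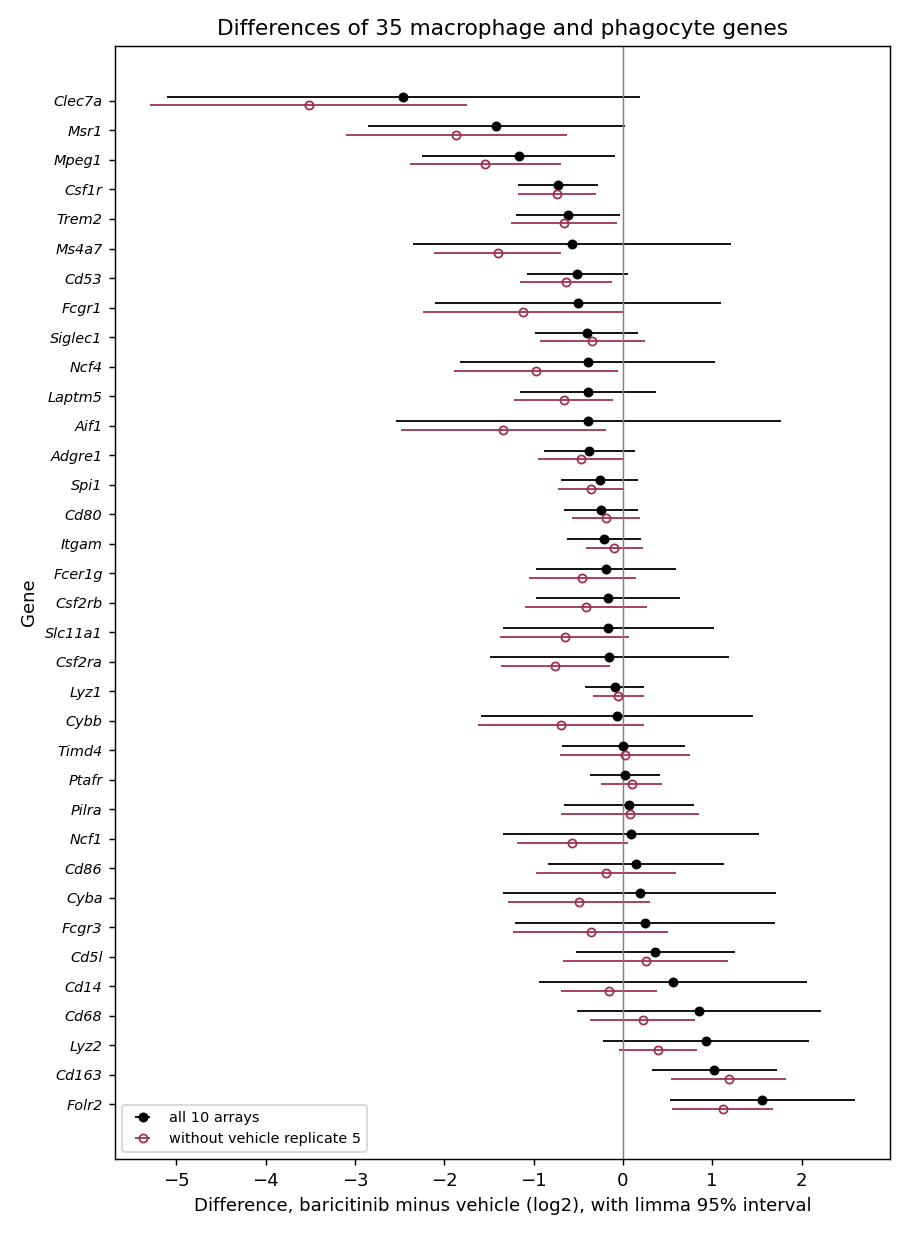
Difference between group means (baricitinib minus vehicle, log2) for the 35 members, sorted by size, with the 95% interval from limma for all 10 arrays (filled black) and without vehicle replicate 5 (open red). Clec7a is at -2.46 and -3.52 at the top, and Folr2 is at 1.56 and 1.12 at the bottom.

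All 3 growth factor receptors had a lower mean in baricitinib treated skin, but the probe sets of Csf1r did not share a sign. Csf1r is the receptor for CSF1 and IL-34, on which most macrophages depend. Its brightest probe set was at 11.98, 11.89, 12.23, 12.04 and 12.00 log2 on the baricitinib arrays, against 12.86, 12.79, 13.26, 12.15 and 12.72 on the vehicle arrays. Vehicle replicate 4, the vehicle array with the narrow 3'/5' gap, was the only one inside the baricitinib range. The difference was -0.73 ± 0.20 (SE, limma adjusted p = 0.227) with all arrays and -0.74 without vehicle replicate 5. Without vehicle replicate 4 it was -0.88, and Csf1r passed the threshold (adjusted p = 0.0403), as did 1.88% of all probe sets. In that fit every vehicle array left had a wider 3'/5' gap than every baricitinib array. Group and RNA quality therefore cannot be told apart there. With all arrays the next probe set had a difference of -0.79. The dimmest was at 7.90, 7.63, 8.38, 8.04 and 8.20 log2 on the baricitinib arrays, against 7.29, 7.93, 7.25, 8.20 and 6.78 on the vehicle arrays, a difference of 0.54. Vehicle replicate 4 lay inside the baricitinib range on all 3 probe sets. With the 3'/5' gap as a covariate the difference of the brightest was -0.31, and the part of RNA length in the opposite signs was not tested.

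Csf2ra and Csf2rb are the alpha chain and the common beta chain of the GM-CSF receptor. Csf2ra was at 7.91 to 9.07 log2 in baricitinib treated mice and 6.22 to 9.91 in vehicle controls, a difference of -0.15, and -0.76 without vehicle replicate 5. Its dimmer probe set had differences of -1.23 and -0.45. On that probe set vehicle replicate 5 was the highest array, at 9.82 log2, whereas it was the lowest on the brighter one. Csf2rb was at 8.86 to 10.23 log2 in baricitinib treated mice and 8.85 to 10.64 in vehicle controls, a difference of -0.17, while its dimmer probe set had a difference of 0.97.

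**Figure D4:**
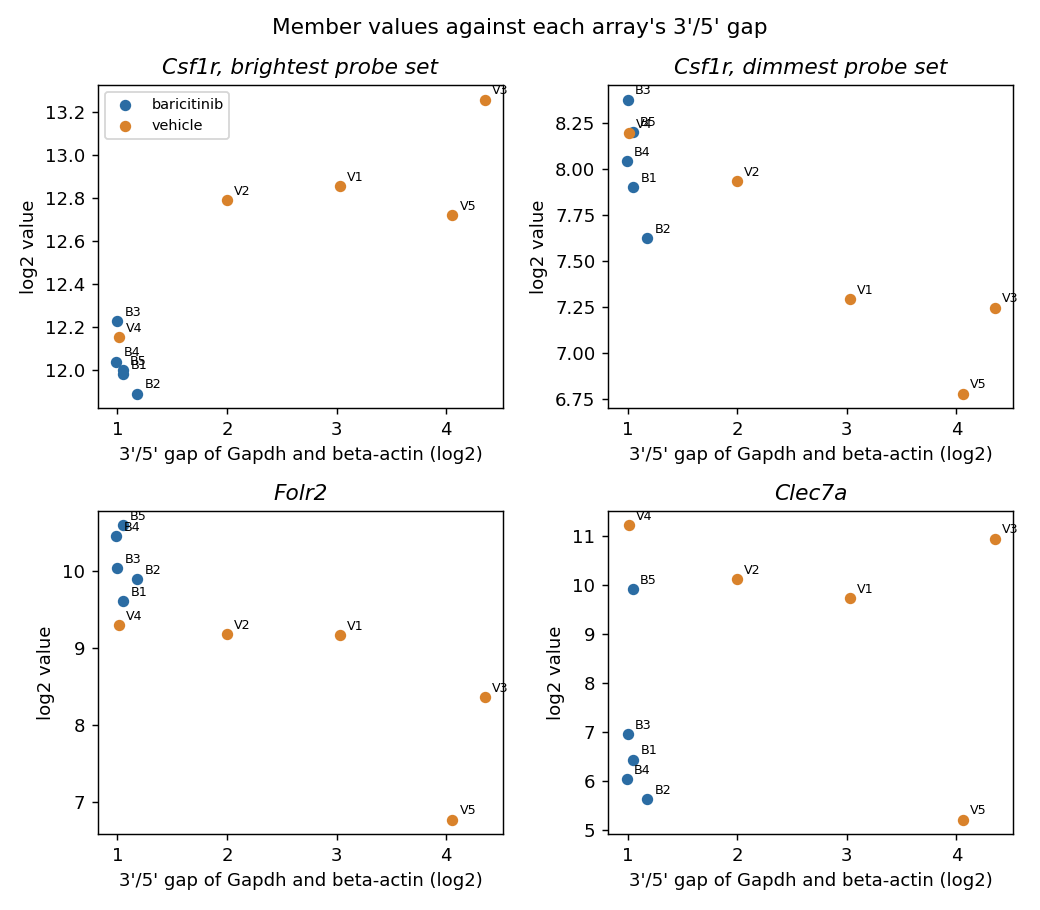
Log2 value of the brightest and the dimmest Csf1r probe set, Folr2 and Clec7a (y axes) against the gap between 3' and 5' control probe sets (x axes, log2) on each array, in blue for baricitinib and orange for vehicle. On both Csf1r probe sets vehicle replicate 4, at a gap of 1.01, lies among the baricitinib arrays, whereas for Folr2 it is below all of them and for Clec7a above all of them.

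With all arrays the Fc receptors and the NADPH oxidase had differences between -0.50 (Fcgr1) and 0.25 (Fcgr3) on the probe sets read. Several were wider without vehicle replicate 5, and for Fcgr3, Cyba and Ncf1 the sign turned on that array. Fcgr1, the high-affinity receptor for IgG and the member whose promoter held the TTCNNNGAA match shown above, was at 6.56 to 8.68 log2 in baricitinib treated mice and 5.15 to 8.89 in vehicle controls. Its difference was -0.50, and -1.12 without vehicle replicate 5 (limma adjusted p = 0.681 and 0.18), while its dimmer probe set had -0.94 and -1.09. Fcgr3, a low-affinity IgG receptor, had a difference of 0.25, and -0.36 without that array. Fcer1g, the signalling gamma chain that Fc receptors share, had a difference of -0.19, and -0.45 without it. Pilra, an inhibitory receptor of myeloid cells, was at 5.62 to 6.50 log2 in baricitinib treated mice and 4.93 to 6.60 in vehicle controls, with a difference of 0.06 in which vehicle replicate 1 was the low array.

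Cybb encodes gp91phox, the catalytic subunit of the phagocyte oxidase. It was at 6.30, 6.15, 6.76, 6.40 and 7.77 log2 on the baricitinib arrays, against 6.25, 7.50, 7.68, 8.06 and 4.22 on the vehicle arrays. Vehicle replicates 1 and 5 and baricitinib replicates 1 to 4 made up the low end, and vehicle replicates 2 to 4 with baricitinib replicate 5 the high end. The difference was -0.07 with a 95% interval of -1.58 to 1.45, and -0.70 without vehicle replicate 5. The other probe sets of Cybb had wider negative differences with all arrays, at -0.99 for the next brightest (-1.17 without vehicle replicate 5) and -0.47 for the dimmest. Its partner Cyba (p22phox) and the cytosolic subunit Ncf1 (p47phox) had differences of 0.19 and 0.09, and of -0.49 and -0.57 without that array. Ncf4 (p40phox) had a difference of -0.40 and Slc11a1, a metal transporter of the phagosome membrane, of -0.17, and these were -0.97 and -0.65 without it. None of the 5 genes passed the adjusted threshold in either fit.

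The 2 lysozymes, enzymes that break bacterial cell walls, are neighbouring copies on chromosome 10. Lyz2 is at chr10:117277541-117282272 and Lyz1 at chr10:117287795-117292868, with 5523 bases between them. Their promoters are shown for how alike the copies are around the transcription start. The transcripts and the probes were not compared. Of 300 positions 254 (84.7%) are identical, and capitals mark the 86-base run they share, from position 201 to 286 counted from the first base printed.
Lyz1: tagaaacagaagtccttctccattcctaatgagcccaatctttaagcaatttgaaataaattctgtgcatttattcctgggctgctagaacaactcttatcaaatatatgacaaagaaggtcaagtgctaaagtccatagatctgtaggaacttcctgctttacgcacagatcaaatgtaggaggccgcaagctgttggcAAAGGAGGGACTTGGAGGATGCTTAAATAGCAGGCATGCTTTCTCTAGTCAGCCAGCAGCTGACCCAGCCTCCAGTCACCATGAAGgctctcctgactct
Lyz2: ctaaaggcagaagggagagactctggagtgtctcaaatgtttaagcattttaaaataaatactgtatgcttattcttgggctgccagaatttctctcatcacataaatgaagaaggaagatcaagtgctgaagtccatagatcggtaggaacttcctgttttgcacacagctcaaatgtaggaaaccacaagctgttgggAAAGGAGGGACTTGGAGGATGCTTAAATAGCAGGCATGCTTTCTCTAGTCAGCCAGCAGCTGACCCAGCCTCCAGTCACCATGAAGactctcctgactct
Lyz1 was read by a probe set of the kind that can match several transcripts, so its value may include Lyz2. The Lyz1 probe set outside that kind was dim, with a mean of 3.56 log2 and a difference of 0.22. The bright one read here was at 12.38, 12.31, 12.63, 12.41 and 12.68 log2 on the baricitinib arrays, against 12.62, 12.61, 12.66, 12.26 and 12.74 on the vehicle arrays, a difference of -0.09. Lyz2, the lysozyme of mouse macrophages, was at 12.01, 11.79, 12.36, 12.13 and 12.61 log2 on the baricitinib arrays, against 11.62, 12.04, 11.44, 12.05 and 9.10 on the vehicle arrays. The vehicle array at 9.10 was replicate 5, on which the bright Lyz1 probe set had its highest value. The difference of Lyz2 was 0.93 ± 0.52 (SE, limma adjusted p = 0.396), and 0.39 ± 0.20 without that array (adjusted p = 0.216).

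Genes shared by most leukocytes had a lower mean in baricitinib treated skin. Cd53, a tetraspanin of leukocytes, was at 10.85, 10.62, 11.11, 10.96 and 11.68 log2 on the baricitinib arrays, against 11.28, 11.68, 12.12, 11.64 and 11.06 on the vehicle arrays. The groups overlapped through baricitinib replicate 5 and vehicle replicate 5, and the difference was -0.51 ± 0.25 (SE, limma adjusted p = 0.366). Laptm5, a lysosomal membrane protein of blood cells, was at 10.91 to 12.29 log2 in baricitinib treated mice and 10.98 to 12.39 in vehicle controls, a difference of -0.39, although 3 of its other 4 probe sets had a difference above 0 with all arrays and 1 of them without vehicle replicate 5. Itgam, which encodes CD11b, was dim, at 3.48 to 3.71 log2 in baricitinib treated mice and 3.52 to 4.27 in vehicle controls, so this defining marker of myeloid cells gave little information. The costimulatory ligands Cd80 and Cd86, which engage CD28 on T cells, had differences of -0.25 and 0.14, and of -0.19 each without vehicle replicate 5.

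Other genes of phagocyte biology, from lists chosen by function, were read in the same fit. Of 103 listed genes 93 were measured, 51 with a lower and 42 with a higher mean in baricitinib treated skin, and 0 passed the adjusted threshold. At an unadjusted p under 0.05 there were 13 lower and 7 higher, beside 6.22% and 9.81% of all genes. The groups did not overlap for Grn, Ccr1 and Cxcl2, which had lower values, and for Mertk, which had higher ones, beside 1.82% of all genes lower and 3.8% higher. Without vehicle replicate 5 there were 63 with a lower mean, beside 57.2% of all genes. In that fit 33 were lower and 8 higher at an unadjusted p under 0.05 (16.1% and 13.3% of all genes). Without overlap 11 were lower and 1 higher (4.73% and 4.53% of all genes), the higher one again being Mertk.

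The monocyte genes lay mainly below 0. Of 6 measured, with Chil3 dim, 4 had a lower mean, with a median of -1.24. Ccr1, a chemokine receptor of monocytes, had the largest difference among them. It was at 2.95, 3.0, 3.41, 3.51 and 5.78 log2 on the baricitinib arrays, against 6.57, 6.08, 7.93, 6.52 and 9.18 on the vehicle arrays. The difference was -3.52 ± 0.70 (SE, limma adjusted p = 0.221). Vehicle replicate 5 was its highest array, unlike for Clec7a, and without it the difference was -3.04. Without vehicle replicate 4 the difference was -3.71, and Ccr1 passed the threshold (adjusted p = 0.0486), as did 1.88% of all probe sets. That fit left only vehicle arrays with a wider 3'/5' gap than every baricitinib array. Ccr2, the receptor that draws monocytes out of bone marrow and into tissue, was at 7.86, 7.70, 8.32, 8.0 and 9.86 log2 on the baricitinib arrays, against 9.32, 10.12, 10.84, 9.95 and 10.35 on the vehicle arrays. Only baricitinib replicate 5 reached the vehicle range, and the difference was -1.77 ± 0.43 (SE, limma adjusted p = 0.223).

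Of 10 macrophage cytokines and effectors, of which Il6, Il10 and Nos2 were dim, 9 had a lower mean, with a median of -0.48. Without vehicle replicate 5 all 10 did, with a median of -0.82. Cxcl2, a neutrophil attractant made by macrophages, was at 3.33, 3.37, 3.32, 3.56 and 6.32 log2 on the baricitinib arrays, against 6.40, 6.37, 6.81, 7.94 and 6.90 on the vehicle arrays. Every vehicle array was above every baricitinib array, with baricitinib replicate 5 just below the lowest of them. The difference was -2.90 ± 0.59 (SE, limma adjusted p = 0.221), and -3.49 without baricitinib replicate 5, where Cxcl2 passed the threshold (adjusted p = 0.0292). Of 16 other pattern receptors, of which Tlr1, Tlr8, Tlr9 and Clec4e were dim, 11 had a lower mean, with a median of -0.40. Without vehicle replicate 5 there were 14, with a median of -0.75. Clec4d, a lectin receptor for fungal and mycobacterial ligands, led them at -2.03. Of 17 genes of Fc receptor and phagocytosis signalling 10 had a lower mean and the median was -0.10, and without vehicle replicate 5 these were 13 and -0.50. The widest difference of that list was that of Fcgr4, another IgG receptor, at -1.81 and at -2.55 without vehicle replicate 5.

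The scavenger and clearance receptors lay mainly above 0. Of 13 measured, 11 had a higher mean in baricitinib treated skin, with a median of 0.74, and 9 without vehicle replicate 5, with a median of 0.33. Gas6, the bridging ligand that ties phosphatidylserine on dying cells to Mertk and Axl, had the largest difference. It was at 11.35, 10.74, 11.88, 11.91 and 11.47 log2 on the baricitinib arrays, against 9.53, 10.30, 9.56, 11.00 and 7.48 on the vehicle arrays, a difference of 1.90 ± 0.57 (SE, limma adjusted p = 0.236), and 1.37 without vehicle replicate 5. Mertk itself was at 8.43, 8.51, 9.11, 8.70 and 8.12 log2 on the baricitinib arrays, against 7.60, 7.85, 8.10, 8.06 and 7.24 on the vehicle arrays. Its groups did not overlap, by a narrow margin, and the difference was 0.81 ± 0.23 (SE, limma adjusted p = 0.23). Cd36, a scavenger receptor that adipocytes and endothelial cells also express, had a difference of 1.22. The 2 genes of the list with a lower mean were Cd300lf and Vsig4. Cd300lf, a myeloid receptor for phosphatidylserine, was at 5.77 to 7.06 log2 in baricitinib treated mice and 6.94 to 8.02 in vehicle controls, a difference of -1.36 ± 0.29 (SE, limma adjusted p = 0.221), and had the smallest p of the list. Vsig4, a complement receptor of resident macrophages, had a difference of -0.66, and -1.30 without vehicle replicate 5.

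Among 13 macrophage growth factors and regulators, of which Csf2 was dim, 7 had a lower mean, with a median of -0.07. Without vehicle replicate 5 there were 8, with a median of -0.56. Il34, the ligand of Csf1r made by keratinocytes and needed by Langerhans cells, had the largest difference, at 7.19, 6.10, 8.22, 7.99 and 6.88 log2 on the baricitinib arrays, against 5.76, 6.08, 5.62, 6.21 and 3.39 on the vehicle arrays. The difference was 1.86 ± 0.58 (SE, limma adjusted p = 0.243), and 1.36 without vehicle replicate 5, whereas that of Csf1, the other ligand, was -0.32. Of 14 lysosomal proteins 9 had a higher mean and the median was 0.56, but without vehicle replicate 5 it was 0.09 with 8 higher. Their largest difference was that of Gpnmb, a glycoprotein of macrophages and pigment cells, at 1.47 with all arrays and 0.67 without vehicle replicate 5. The smallest p of the list was that of Ctss, a cysteine protease of antigen-presenting cells, which had a lower mean. It was at 11.52 to 12.74 log2 in baricitinib treated mice and 12.72 to 13.46 in vehicle controls, a difference of -1.06 ± 0.24 (SE, limma adjusted p = 0.221). At an unadjusted p under 0.05 the lysosomal genes were Ctss and Grn, both lower, with 0 higher. Over all genes 6.22% were lower and 9.81% higher at that level. Of 4 oxidase partners 3 had a lower mean, led by Hvcn1, the voltage-gated proton channel that sustains the oxidase, at -0.83.

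The tissue carried its own markers, with Krt5 of basal keratinocytes at 13.0 to 13.2 log2 in baricitinib treated mice and 13.1 to 13.7 in vehicle controls. Krt1 of the upper epidermis had a difference of -1.05, and 3 of 5 keratinocyte markers had a lower mean (median -0.30), with a summed level of 14.79 to 15.09 in baricitinib treated mice and 14.72 to 15.44 in vehicle controls. Markers of other cell types differed between the groups without passing the threshold, and their part in the members' differences was not tested. T cell markers had a lower mean for 8 of 9 genes (median -0.79), with a summed level of 11.00 to 12.57 log2 in baricitinib treated mice and 10.90 to 13.15 in vehicle controls, and Cd5 dim. Without vehicle replicate 5, which had the lowest sum, 9 of 9 were lower (median -1.01). With all arrays Cd8a had the widest difference of that list, at -3.80, wider than that of any member. B cell markers were lower for 5 of 5 (median -0.76), with summed levels of 6.71 to 7.41 in baricitinib treated mice and 7.27 to 8.28 in vehicle controls, and Ms4a1 and Pax5 dim. NK cell markers were lower for 4 of 4 (median -0.56), at 5.53 to 7.57 in baricitinib treated mice and 5.97 to 7.59 in vehicle controls, with Ncr1, Klra8 and Eomes dim. Mast cell markers had a higher mean, the direction of Folr2 and Cd163, for 7 of 7 (median 1.21), with summed levels of 11.37 to 12.87 in baricitinib treated mice and 10.69 to 11.23 in vehicle controls. Endothelial markers were higher for 5 of 5 (median 1.01), at summed levels of 9.86 to 11.14 in baricitinib treated mice and 9.46 to 9.63 in vehicle controls, and adipocyte markers for 3 of 3 (median 1.63), at 12.99 to 13.91 in baricitinib treated mice and 12.27 to 13.49 in vehicle controls. Muscle markers were higher for 4 of 5 (median 0.82), at 14.07 to 15.09 in baricitinib treated mice and 13.66 to 14.40 in vehicle controls. Fibroblast markers were higher for 5 of 6 (median 0.33), at 14.35 to 15.07 in baricitinib treated mice and 14.07 to 14.52 in vehicle controls. Hair follicle markers were higher for 6 of 6 (median 0.54), at 13.86 to 15.39 in baricitinib treated mice and 10.95 to 14.93 in vehicle controls, but for 3 of 6 without vehicle replicate 5 (median -0.19). Among them Krt15 of follicle stem cells had a difference of 2.49. The groups did not overlap for Krt15, Dcn, Lum, Cma1, Mcpt4, Tpsb2, Kdr and Tie1, all higher, beside 3.8% of all genes. Fscn1, a dendritic cell marker, was lower without overlap, beside 1.82% of all genes. The margin was narrow, from 11.94 log2 on the highest baricitinib array to 11.96 on the lowest vehicle array. Of the 9 markers in its list 4 had a higher mean, Cd207 most widely, with a difference of 1.08. Neutrophil markers had a median of -0.08, with summed levels of 10.65 to 11.96 in baricitinib treated mice and 9.48 to 12.39 in vehicle controls, and Mmp8, Ngp, Cxcr2 and Ltf dim. Dendritic and Langerhans cell markers, which overlap phagocytes in function, had a median of -0.01, at summed levels of 13.08 to 13.61 in baricitinib treated mice and 12.41 to 13.67 in vehicle controls, with Xcr1 and Ccr7 dim. These sums rested mainly on Epcam and Fscn1, with means of 12.25 and 11.67 log2 in baricitinib treated mice, and say little of the other markers. Vehicle replicate 5, with Epcam at 8.72, had the lowest sum. Eosinophil markers were lower for 3 of 3 (median -0.35), at 5.23 to 5.56 in baricitinib treated mice and 5.34 to 6.94 in vehicle controls and all dim. Erythroid markers were higher for 2 of 2 (median 0.28), at 5.89 to 9.81 in baricitinib treated mice and 5.63 to 8.40 in vehicle controls, but for 1 of 2 without vehicle replicate 5 (median -0.13). That spread was mainly the spread of Slc4a1, at 4.27 to 9.72 in baricitinib treated mice and 4.75 to 8.20 in vehicle controls. Alas2 was at 5.16 to 5.90 and 4.51 to 5.64.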

How the data were processed

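Group and replicate number came from the sample titles. RNA from skin biopsies was amplified and labelled with NuGen kits. The authors deposited log2 values, 1 per probe set and array, computed with RMA (version not given in the sources used here), which corrects background, equalizes the distribution of probe intensities and summarizes probes. Of 45101 probe sets, 64 controls were left out and the other 45037 tested unfiltered. GEO annotation gave 1 symbol to 34945, several to 932 and none to 9160. No coordinates accompany the probe sets. Replicates may share litters, so p-values measure the spread between these mice.

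The 2 groups were set against each other in limma 3.58.1 under R 4.3.3 (lmFit, eBayes, two-sided, Benjamini-Hochberg adjustment over 45037 probe sets). The calculation was tested on simulated data. Members and lists were chosen with earlier results of these data known. Values by array were given for the 12 members with the largest absolute differences, for Adgre1, Cd68, Csf1r, Spi1, Lyz1, Lyz2 and Cybb, and for members whose groups did not overlap. Of each list of other phagocyte genes the one with the largest difference was named. Ccr2, Mertk, Cd36, Cd300lf, Vsig4, Csf1, Ctss and Grn were added after their values were seen. So were the markers Krt1, Krt5, Krt15, Dcn, Lum, Cma1, Mcpt4, Tpsb2, Kdr, Tie1, Fscn1, Cd207, Cd8a, Epcam, Slc4a1 and Alas2. Alternatives were other normalizations, a filter at 5 log2, array weights, the replicate block, RNA quality, each array left out and other choices of probe set.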

Additional observations from a re-analysis of the deposited data

Results flagged for a closer look

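A sample stood far from the other 4 of its group in 14 of 72 groups of values examined, where chance flags about 1 in 20. Vehicle replicate 5 was the sample for 7 of them, each time the lowest of its group. It was at 4.42 log2 for Aif1, 5.70 for Ms4a7, 5.12 for Ncf1, 9.10 for Lyz2, 5.21 for Clec7a and 10.98 for Laptm5, and its median over the 35 members was 6.24.

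Baricitinib replicate 5 was the sample for 4, each time the highest of its group and inside the range of vehicle replicates 1 to 4 for 3 of them. It was at 9.61 log2 for Ms4a7, 8.68 for Fcgr1 and 8.99 for Msr1, and at 6.04 for Cd80, above every vehicle array.

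Vehicle replicate 4 was the lowest of its group for Lyz1 (12.26 log2) and the highest for Trem2 (7.09). Vehicle replicate 1 was the lowest for Pilra (4.93).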

How the results depend on the processing

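The median difference of the 35 members stayed below 0 under every alternative run, between -0.53 (array quality weights) and -0.039 (without baricitinib replicate 2). The count of calls did not. Array quality weights, which set the weight of vehicle replicate 5 at 0.029, of vehicle replicate 4 at 0.50 and of baricitinib replicate 1 at 5.43, called 9676 probe sets (21.5%), 10 members and 33 of the other phagocyte genes. The 10 members were Cd163 and Folr2, higher, and Clec7a, Msr1, Mpeg1, Ms4a7, Csf1r, Csf2ra, Laptm5 and Cd53, lower. With each array left out in turn 0 to 848 probe sets passed, with 0 to 1 members and 0 to 1 of the other phagocyte genes. The 848 came without vehicle replicate 4, where the groups did not overlap in the 3'/5' gap. They were 1.88% of probe sets, with Csf1r and Ccr1 among them. There were 12 without baricitinib replicate 5, with Cxcl2 among them. Without vehicle replicate 5 there were 0, against 12559 probe sets at an unadjusted p under 0.05 and 6680 with all arrays. The other settings called 0 members. No pairing by the numbers in the titles was seen. Same-numbered arrays had residual correlations of -0.23 to 0.09, and only 1 of 5 correlated best with its own number. The residuals were taken from group means that included vehicle replicate 5, so they cannot show that the mice were unpaired. The replicate number as a block called 0 members and left the median difference at -0.17.

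Single differences changed sign with the processing, and the cause was not tested. With values centred on each array's median, the difference of Pilra (-0.0069), Ptafr (-0.049) and Timd4 (-0.067) had the other sign. After quantile normalization of the deposited values the sign turned for Cybb (0.035), Itgam (0.022) and Timd4 (-0.15). Cyclic loess normalization turned the sign for Fcgr3 (-0.00035), Pilra (-0.030), Cyba (-0.12), Ncf1 (-0.22), Itgam (0.047), Cd86 (-0.074) and Timd4 (-0.18). Weighting arrays by quality turned it for Fcgr3 (-0.33), Cyba (-0.54), Ncf1 (-0.68), Cd14 (-0.15), Cd86 (-0.23), Timd4 (-0.0022) and Cd5l (-0.21). With the 3'/5' gap as a covariate it turned for Cd68 (-0.40), Fcgr3 (-0.97), Pilra (-0.21), Cyba (-1.26), Ncf1 (-0.83), Lyz1 (0.11), Lyz2 (-0.10), Cd14 (-0.31) and Cd86 (-0.30). The mean over a gene's probe sets turned it for Csf2rb (0.40), Lyz1 (0.045), Ptafr (-0.041) and Laptm5 (0.075). Reading each gene from its dimmest probe set turned it for Csf1r (0.54), Csf2rb (0.97), Ncf1 (-0.012), Lyz1 (0.22) and Ptafr (-0.10). Dropping probe sets that can match several transcripts turned it for Lyz1 (0.22) and Laptm5 (0.038). The mean over probe sets gave Csf1r -0.33. Leaving out each array in turn gave ranges that crossed 0 for Cybb (-0.70 to 0.26), Csf2rb (-0.41 to 0.033), Pilra (-0.22 to 0.20), Ptafr (-0.072 to 0.10), Cyba (-0.49 to 0.54), Ncf1 (-0.57 to 0.32), Cd86 (-0.19 to 0.41), Timd4 (-0.25 to 0.15), Csf2ra (-0.76 to 0.16), Slc11a1 (-0.65 to 0.11), Aif1 (-1.34 to 0.023), Fcgr3 (-0.36 to 0.61) and Cd14 (-0.15 to 0.87). Clec7a, Msr1, Mpeg1, Trem2, Folr2 and Cd163 kept their sign under every alternative run. A filter on dim probe sets left 33 members, and dropping probe sets that match several transcripts left 34.

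These values come from 5 mice in each group, and the number of arrays limits their precision. RMA gives arrays a common distribution, so a weak sample is not seen in its mean. Probe sets lie near the 3' end of transcripts to different degrees, and the 3'/5' gap differed between groups. Itgam and Cd5l were dim, with means under 5 log2.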
